A study of Mus musculus with 27 samples.

Results

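The 10 genes studied here mark Sertoli cells and were followed through the differentiation of mouse embryonic stem cells towards induced Sertoli-like cells. They are Sox9, Sox8, Amh, Dhh, Ptgds, Mro, Cst9, Erbb4, Aard and Cldn11, a list fixed by name and matched by symbol to the Ensembl identifiers of the deposited tables, which hold 48795 genes. All 10 members were found, and all 10 passed the filter on low counts that left 20839 genes for testing. Each stage or condition was measured by bulk RNA-seq in 3 libraries, 27 libraries in 9 groups, with 35923040 to 84876603 expected counts per library (the number of read pairs that RSEM assigns to genes). The study calls the libraries of a group biological replicates, and the labels do not name separate cultures, so the p-values measure the spread between these libraries.

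All libraries came from 1 clone (clone 7) of XY cells of an F1 cross of C57BL/6 and CBA, carrying the Tesco-CFP reporter and the R26-rtTA allele. TESCO is an enhancer of Sox9, so the reporter emits cyan fluorescence where that enhancer works, and rtTA switches on doxycycline-responsive genes. ESC were undifferentiated stem cells. EpiSC, epiblast-like cells, had been kept for 60 h with bFGF (a fibroblast growth factor) at 12 ng/ml, Activin A at 20 ng/ml and 1% serum replacement. M, early mesoderm, followed after 36 h in bFGF (20 ng/ml), BMP4 (10 ng/ml) and the phosphatidylinositol 3-kinase inhibitor LY294002 (10 µM). IM1 to IM5 were conditions for intermediate mesoderm, all with bFGF (5 ng/ml) and BMP (20 ng/ml). IM1 had nothing further. IM3 also had retinoic acid (100 nM), IM2 retinoic acid and Activin A (10 ng/ml), IM4 retinoic acid and CHIR99021 (0.3 µM), a GSK3 inhibitor that activates Wnt signalling, and IM5 all of these. iSLC were IM3 cells given doxycycline-inducible Nr5a1 and Dmrt1 by lentivirus, moved to a Sertoli cell medium with doxycycline, and sorted for CFP. The virus, doxycycline, medium, added time and sort therefore cannot be told apart in the comparison of iSLC with IM3, and the sort selected on a Sox9 enhancer. There was no library from Sertoli cells of a testis among those analysed here.

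Sertoli cells are the supporting cells of the testis. In the fetal XY gonad the Y-linked factor SRY, together with NR5A1, acts on Sox9, and SOX9 with SOX8 drives the rest of the programme, including Amh, whose product makes the Müllerian ducts regress. Sertoli cells also signal to their neighbours through DHH and prostaglandin D2, and later close the seminiferous tubule with tight junctions that contain claudin 11.

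The 10 genes did not share 1 pattern over the stages. There were 5 with a mean of at least 1 TPM (a level corrected for transcript length and library size) in IM2, 6 in IM1, 4 each in IM3, IM4 and IM5, and 8 in iSLC, against 2 in ESC, 1 in EpiSC and 3 in M. In iSLC the exceptions were Amh and Ptgds. Sox9 alone made up 75.1% of the summed TPM of the 10 genes in IM3 and 46.7% in iSLC. In the test over all 9 groups 10 of 10 members passed at an adjusted p under 0.05 (edgeR's quasi-likelihood F test, Benjamini-Hochberg adjustment), where 96.4% of all genes tested passed, so the count says little about these genes. In bulk RNA fewer cells of a type and less RNA per cell cannot be told apart.

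**Figure D1:**
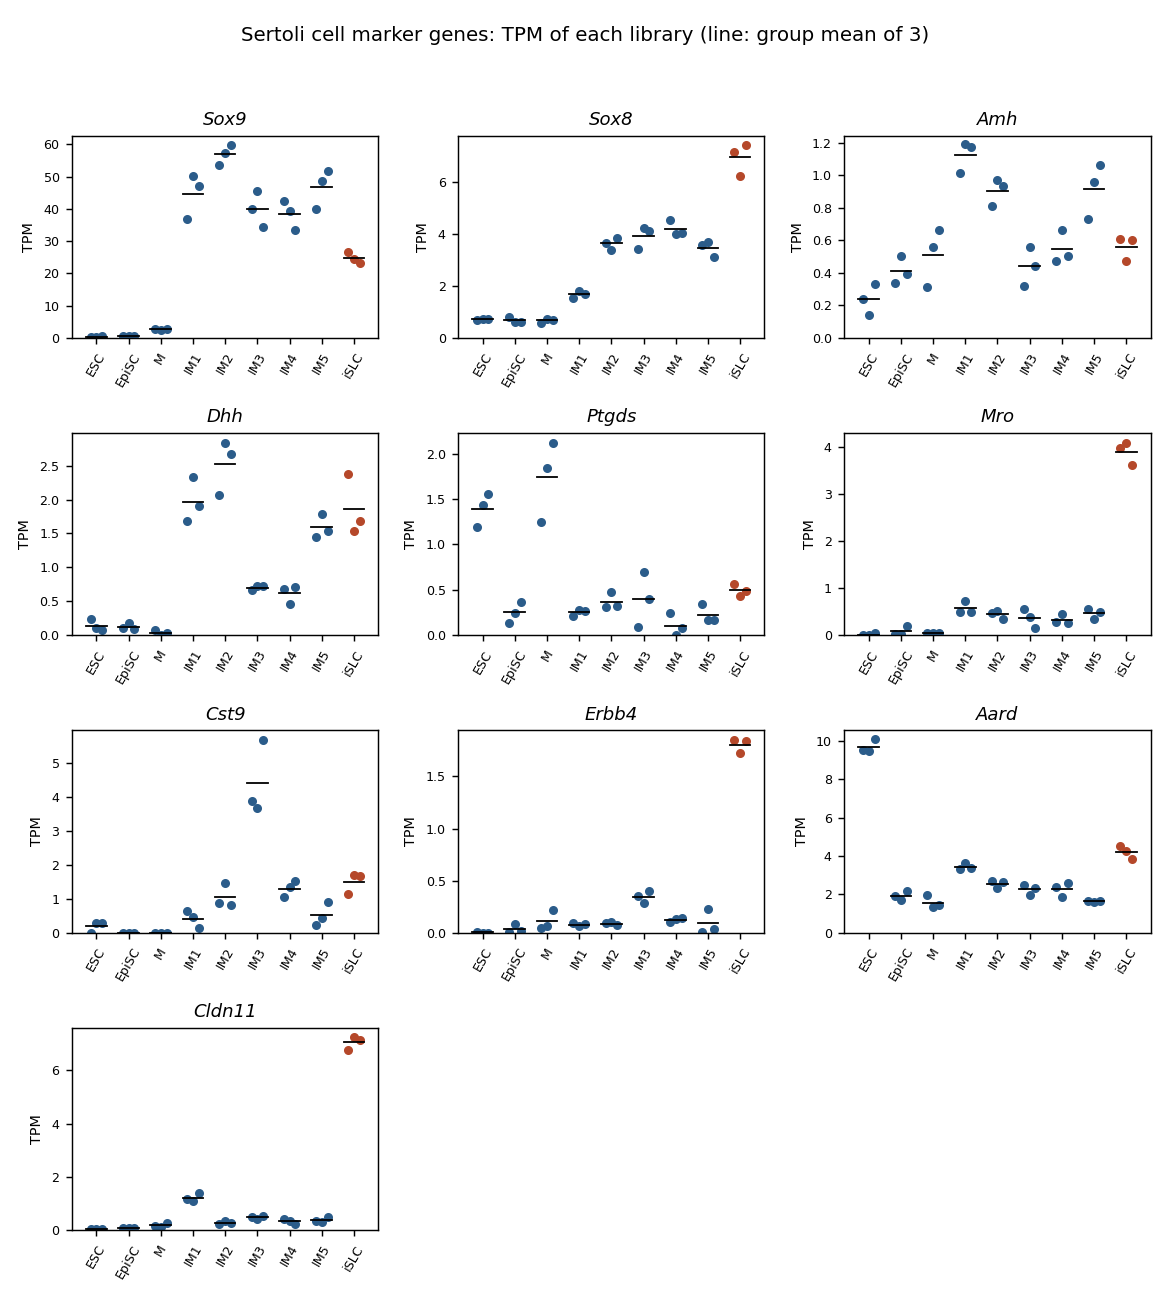
TPM (y axis, from 0, scale differs by panel) of the 10 genes in each of the 27 libraries, by group on the x axis, where points are libraries, lines are means of 3, and iSLC is in red. Mro, Erbb4 and Cldn11 sat low in every group before iSLC, whereas Sox9 reached 36.8 to 59.7 TPM in IM1 and IM2 and 23.3 to 26.5 TPM in iSLC.

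The first steps, up to mesoderm, were examined for how many of the markers were on before intermediate mesoderm. A gene was called where the adjusted p was at most 0.01, the fold at least 2 and the mean normalized read count at least 100 over all libraries and in a compared group, the thresholds of the study. Only Sox9, Sox8, Erbb4 and Aard average 100 reads, so the other 6 could not be called at that minimum, and each count is also given without it. From ESC to EpiSC 0 members were called higher and 1 lower, Aard, where 3.75% and 4.32% of all genes were called in those directions. Without the count minimum 1 was higher and 3 lower, against 8.1% and 10.3% of all genes. From EpiSC to M 1 was higher, Sox9, and 0 were lower, against 6.79% and 7.72% of all genes, and without the minimum 4 were higher and 1 lower, against 10.7% and 17.3%.

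Aard (ENSMUSG00000068522, chr15:52040107-52045722), named for an alanine- and arginine-rich domain, was highest in the stem cells. Its level was 9.7 ± 0.36 TPM (SD, n = 3) in ESC and 1.93 ± 0.24 TPM in EpiSC, with no overlap, and it fell by 2.27 on the log2 scale (standard error 0.14, adjusted p = 1.18e-13). Ptgds (ENSMUSG00000015090, chr2:25466709-25470046), the lipocalin-type synthase of prostaglandin D2, had the other pattern with an early maximum. It was at 1.39 ± 0.19 TPM in ESC and 1.74 ± 0.44 TPM in M but at 0.25 ± 0.12 TPM in EpiSC, and both steps passed without the count minimum (log2 fold changes of -2.37 and 2.71). In IM1 to IM5 and iSLC the mean TPM of Ptgds was between 0.107 and 0.493, on 0 to 12 reads per library. Its highest groups, ESC and M, did not differ beyond the spread of their libraries.

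Cst9 (ENSMUSG00000027445, chr2:148835147-148838738), which encodes the secreted cystatin 9 (testatin), had no read in the 6 libraries of EpiSC and M. It had 0, 6 and 5 reads in the 3 ESC libraries, at least 1.37-fold above the floor of 3 reads per library in EpiSC. That floor covers counting error only, whereas the 95% intervals given below come from the edgeR fit and include the spread between libraries. Dhh, Mro, Erbb4 and Cldn11 had means of at most 0.177 TPM in ESC, EpiSC and M. The calls without the count minimum at those levels were Erbb4 higher and Cst9 lower in EpiSC than in ESC, and Erbb4 and Cldn11 higher and Dhh lower in M than in EpiSC, each on at most 47 reads in any library. Leaving out ESC replicate 2 or 3 ended both calls in EpiSC against ESC, EpiSC replicate 3 ended both as well, EpiSC replicate 1 ended that of Cst9 and EpiSC replicate 2 that of Erbb4 (adjusted p of 0.011 to 0.0439 among these). In M against EpiSC that of Dhh was lost without EpiSC replicate 2, M replicate 2 or M replicate 3 (adjusted p = 0.0486, 0.0409 and 0.0253) and that of Cldn11 without M replicate 3 (0.0524), while that of Erbb4 was lost with an offset for effective gene length (0.0246). The same offset ended the call of Erbb4 in EpiSC against ESC (adjusted p = 0.0558).

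From mesoderm to intermediate mesoderm most of the members rose, if calls without the count minimum are included. In IM1 against M 3 members were called higher, Sox9, Sox8 and Aard, and 0 lower, where 9.72% and 5.94% of all genes were, and without the count minimum 8 were higher and 1, Ptgds, lower, against 17.6% and 10.3%. In IM3 against M 3 were higher, Sox9, Sox8 and Erbb4, and 0 lower, against 9.26% and 5.66% of all genes, and without the minimum 7 were higher and 1, again Ptgds, lower, against 16.2% and 9.73%. Both comparisons share the M libraries, and IM3 is shared by the comparisons with M, IM1, IM2, IM4 and iSLC.

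Sox9 (ENSMUSG00000000567, chr11:112782224-112787760), the transcription factor that sets the Sertoli fate, was the strongest of the 10 at every intermediate mesoderm condition. It had 0.24, 0.3 and 0.5 TPM in ESC, 0.7, 0.66 and 0.71 TPM in EpiSC and 2.79, 2.29 and 2.69 TPM in M. In IM1 the 3 libraries had 36.8, 50.2 and 47.1 TPM, and in IM3 40.1, 45.5 and 34.5 TPM. Each of these later libraries lay above every earlier one, and those of IM1 and IM3 overlapped. Sox9 rose 16.1-fold from M to IM1 (log2 fold change 4.01, standard error 0.13, adjusted p = 6.87e-20) and 13.6-fold from M to IM3 (3.76, standard error 0.13, adjusted p = 2.40e-19). Sox9 is also used outside the gonad, in cartilage and in gut endoderm, and some of the genes listed for each were higher than in M in the same cultures. The summed level of 8 cartilage markers was 8.66 to 10.4 TPM in M, 37.6 to 44.5 TPM in IM1 and 32 to 38.1 TPM in IM3, with Cnmd at 3 reads or fewer in IM1 and IM3. Sox6 held most of it in IM1 and IM3, at a mean of 0.633 TPM in M, 26.9 TPM in IM1 and 22 TPM in IM3. Of the 7 tested, Col9a1, Sox5 and Sox6 were called higher in IM1 than in M and Acan lower, and in IM3 against M the same 3 were called higher and Acan and Col11a2 lower. The median log2 fold change of the 7 was 0.13 in IM1 against M and 0.36 in IM3 against M. The summed level of 6 notochord and endoderm markers was 12.1 to 13.5 TPM in M, 79.3 to 85.7 TPM in IM1 and 77.2 to 87 TPM in IM3, with Noto at 3 reads or fewer in both. Afp made up most of it in IM1 and IM3, at a mean of 0.07 TPM in M, 49.5 TPM in IM1 and 74.8 TPM in IM3. Sox17 and Afp were called higher in IM1 than in M, with 1 lower without the count minimum, and in IM3 against M Afp was the 1 called higher of 6, with 2 lower without the count minimum and a median log2 fold change of -0.74. The part of these genes' cells in the Sox9 level was not tested.

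Sox8 (ENSMUSG00000024176, chr17:25565892-25570686), the close relative of Sox9 that backs it up in Sertoli cells, had means of 0.667 to 0.72 TPM in ESC, EpiSC and M. It had 1.54, 1.79 and 1.68 TPM in IM1 and rose 2.15-fold from M (log2 fold change 1.10, standard error 0.13, adjusted p = 2.25e-08). Of the exon bases of Sox8, 10.6% lie opposite the antisense gene 2810468N07Rik, and the strand setting of the counting was not stated, so reads of the pair cannot be told apart there. 2810468N07Rik was at a mean of 3.36 TPM in M, 4.67 TPM in IM1, 8.51 TPM in IM3 and 7.55 TPM in iSLC, and its part in the Sox8 counts was not tested. Dhh (ENSMUSG00000023000, chr15:98891152-98898540), the hedgehog ligand of Sertoli cells, went from 0.01 to 0.07 TPM in M to 1.68, 2.33 and 1.9 TPM in IM1, which is 5.50 on the log2 scale (standard error 0.36, adjusted p = 2.11e-13). Exons of Dhh overlap those of Rhebl1 on the same strand over 12.4% of its bases and those of the antisense gene Gm49442 over 25.2%. Rhebl1 itself went from a mean of 39.4 TPM in M to 14.4 TPM in IM1.

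Cst9 was at least 2.30-fold higher in IM1 and at least 22.4-fold higher in IM3 than the floor of 3 reads per library in M. Mro (ENSMUSG00000064036, chr18:73859385-73881333), maestro, a gene found through its male-biased expression in the fetal gonad, rose from a mean of 0.047 TPM in M to 0.57 TPM in IM1 (log2 fold change 3.28, standard error 0.41, adjusted p = 7.40e-08). Cldn11 (ENSMUSG00000037625, chr3:31149920-31164324) rose from 0.18 to 1.21 TPM between the same groups (log2 fold change 2.64, standard error 0.23, adjusted p = 6.58e-11). Aard rose 2.07-fold from M to IM1 and fell under the fold threshold without M replicate 2 or 3 (log2 fold changes of 0.98 and 0.96), and the rise of Mro from M to IM3 (2.11) was lost without IM3 replicate 1 (1.66, adjusted p = 0.0137).

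Amh (ENSMUSG00000035262, chr10:80805243-80807648), the hormone gene by which fetal Sertoli cells are best known, stayed low in all groups. Its mean was highest in IM1, with libraries at 1.01, 1.19 and 1.17 TPM on 61 to 90 reads. It was lowest in ESC, at 0.14 to 0.33 TPM. Its libraries in IM1 overlapped those in IM5 (0.73 to 1.06 TPM). Its libraries in ESC overlapped those in M (0.31 to 0.66 TPM) and IM3 (0.32 to 0.56 TPM). Without the count minimum it was called higher in IM1 than in M (log2 fold change 1.04, adjusted p = 0.000916), but with an offset for GC content the value was 0.40 (adjusted p = 0.175), without M replicate 1 it was 0.78 (adjusted p = 0.0119) and without IM1 replicate 2 it was 0.99, under the fold threshold. Exons of Amh are 65.4% G and C, the highest of the 10, and ESC, M, IM3 and IM4 libraries differed from the rest in their trend with GC content. The median log2 deviation of GC-rich genes less that of GC-poor genes was -0.384 to -0.0599 in those 12 libraries and -0.0962 to 0.413 in the other 15. The same 12 had 3.89 to 27.1 CPM (counts scaled to library size) of 6 genes of adult red blood cells, and the other 15 had 0.382 to 1.39 CPM. Each condition has all its libraries in 1 of these sets, so this difference between libraries and the conditions cannot be told apart in comparisons across the sets, such as IM1 with M, IM3 with IM1, IM2 with IM3 and iSLC with IM3.

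**Figure D2:**
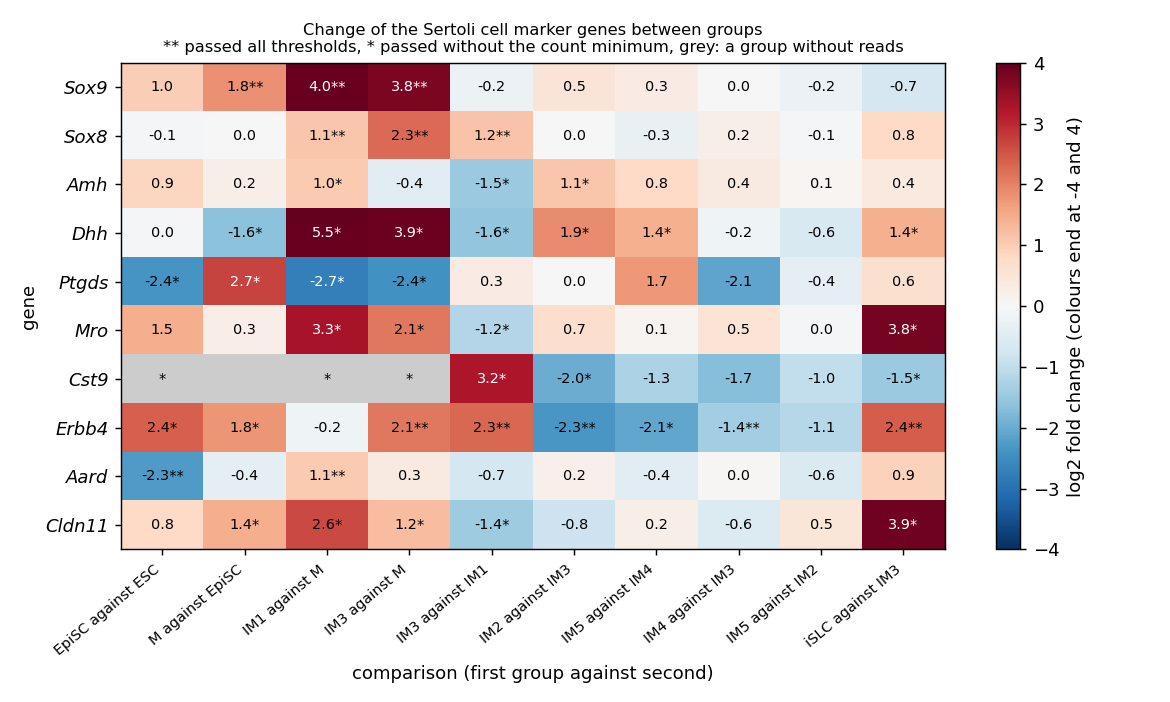
Log2 fold change of the 10 genes (rows) in 10 comparisons of the first with the second group (columns), from edgeR, with red for higher and blue for lower in the first group. Most cells of IM1 against M and IM3 against M are red, those of IM4 against IM3 and IM5 against IM2 are mostly pale, and Mro and Cldn11 stand at 3.8 and 3.9 in iSLC against IM3.

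The 5 intermediate mesoderm conditions asked which factors move the cells towards the gonad. IM3 differed from IM1 by the addition of retinoic acid, and members differed in both directions, with 2 called higher, Sox8 and Erbb4, and 0 lower, where 2.62% and 3.72% of all genes were. Without the count minimum 3 were higher and 4 lower, against 5.17% and 6.81% of all genes, and the median log2 fold change of the 10 was -0.48 against 0 for all genes. Sox8 had 3.42, 4.2 and 4.09 TPM in IM3, above all libraries of IM1, and rose 2.23-fold (log2 fold change 1.16, standard error 0.11, adjusted p = 2.14e-09). Cst9 reached its maximum over all groups in IM3, with 3.88, 3.67 and 5.69 TPM on 61, 40 and 62 reads, against 0.64, 0.47 and 0.14 TPM in IM1 (log2 fold change 3.23, standard error 0.47, adjusted p = 5.23e-06). Erbb4 (ENSMUSG00000062209, chr1:68032186-69108059), the neuregulin receptor, had 78 to 130 reads in IM3 and 22 to 44 in IM1 (log2 fold change 2.30, standard error 0.27, adjusted p = 6.03e-08).

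Dhh, Cldn11, Amh and Mro were lower in IM3 than in IM1. The log2 fold changes were -1.58 for Dhh (standard error 0.24, adjusted p = 2.76e-06) and -1.41 for Cldn11 (standard error 0.20, adjusted p = 1.73e-06), and the libraries of the groups did not overlap for either gene. Amh (-1.47, adjusted p = 7.05e-05) missed the thresholds with the GC offset (-0.80, adjusted p = 0.0169), and Mro (-1.17, adjusted p = 0.00345) missed them with the length offset (-0.78, adjusted p = 0.143) and without IM1 replicate 2, IM3 replicate 2 or IM3 replicate 3 (adjusted p of 0.0187 to 0.0258). Sox9 did not pass the p threshold (log2 fold change -0.25, 95% interval -0.45 to -0.04, adjusted p = 0.0537), while Wt1 and Gata4, gonadal regulators that act before Sox9, rose by log2 fold changes of 4.41 and 1.60.

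Activin A was present in IM2 and absent in IM3, with retinoic acid in both. Among the members 0 were called higher and 1 lower, Erbb4, where 2.46% and 1.34% of all genes were, and without the count minimum 2 were higher and 2 lower, against 4.19% and 3.05%. Dhh had 2.07, 2.84 and 2.67 TPM in IM2 and 0.66, 0.72 and 0.72 TPM in IM3, a difference of 1.88 on the log2 scale (standard error 0.24, adjusted p = 3.50e-07). Its mean was highest in IM2, whose libraries overlapped those of IM1 (1.68 to 2.33 TPM) and iSLC (1.53 to 2.38 TPM). Erbb4 and Cst9 were lower in IM2, by log2 fold changes of -2.34 (standard error 0.28, adjusted p = 1.49e-07) and -1.98 (standard error 0.44, adjusted p = 0.000878). Amh, with 0.81 to 0.97 TPM in IM2 and 0.32 to 0.56 TPM in IM3, was called at 1.10 (adjusted p = 0.00283) but not with the GC offset (0.49, adjusted p = 0.174) nor without IM2 replicate 2 or 3 or IM3 replicate 1 or 3 (adjusted p of 0.0102 to 0.0299). Sox9 had 53.7, 57.2 and 59.7 TPM in IM2, all above IM3, yet the difference of 0.53 on the log2 scale (standard error 0.11, adjusted p = 0.000219) was under the fold threshold. Beside this, the summed notochord and endoderm markers were at 205 to 262 TPM in IM2, their maximum, with Afp at a mean of 218 TPM and 1 of 6 genes at 3 reads or fewer, and their part in the Sox9 and Dhh levels was not tested.

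With CHIR99021 present the same contrast of Activin A, IM5 with IM4, called 0 members higher and 0 lower, where 2.63% and 1.46% of all genes were called, and 1 higher and 1 lower without the count minimum, against 4.99% and 3.01%. These were Dhh (log2 fold change 1.43, standard error 0.24, adjusted p = 1.63e-05) and Erbb4 (-2.06, standard error 0.34, adjusted p = 1.59e-05). Erbb4 was lost with the length offset (-1.41, adjusted p = 0.075). The difference between the contrasts IM2 with IM3 and IM5 with IM4 was itself tested as an interaction, in which 0 of 10 members and 0.0336% of all genes were called (0.0432% without the count minimum), with unadjusted p under 0.05 for Aard and Cldn11 (adjusted p of 0.268 and 0.242).

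IM4 differed from IM3 by the addition of CHIR99021. Erbb4 was called lower and 0 members higher, where 0.101% and 0% of all genes were (0.163% and 0.0096% without the count minimum, with the same single member). Its read counts were 33, 53 and 53 in IM4 and 130, 78 and 99 in IM3 (log2 fold change -1.40, standard error 0.26, adjusted p = 0.00225). The call was lost with the length offset (-1.42, adjusted p = 0.181) and without IM3 replicate 1 or 3 or IM4 replicate 1 or 2 (adjusted p of 0.0119 to 0.0173). The effective length that RSEM used for Erbb4, whose transcripts differ in length, ran from 2254 to 11846 bases, and was over 10000 bases in 21 of 27 libraries, so its TPM and its reads need not move together. Sox9 differed by -0.02 (95% interval -0.23 to 0.18) and Sox8 by 0.23 (95% interval 0.02 to 0.44, adjusted p = 0.397). In IM5 against IM2, with Activin A present, 0 members were called with or without the count minimum, where 0.235% and 0.485% of all genes were, and unadjusted p was under 0.05 for 4 of the 10.

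A subset of the markers was higher in iSLC than in IM3. In iSLC against IM3 1 member was called higher, Erbb4, and 0 lower, where 10.3% and 8.92% of all genes were. Without the count minimum 4 were higher, Erbb4, Cldn11, Mro and Dhh, and 1, Cst9, was lower, against 18.6% and 15.1% of all genes, and the median log2 fold change of the 10 was 0.86 against 0 for all genes. The 1 of 10 called higher at all thresholds is close to the share of all genes, and the 4 of 10 without the minimum is above it. The members were chosen with earlier results of these data known, so neither count measures an enrichment.

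Cldn11, the claudin of the Sertoli cell barrier, had 6.78, 7.24 and 7.13 TPM in iSLC on 423 to 468 reads. In IM3 it had 0.5, 0.42 and 0.53 TPM on 16 to 27 reads, and no library of any other group was above 1.38 TPM. The rise was 14.7-fold (log2 fold change 3.88, standard error 0.20, adjusted p = 7.69e-16). Mro had 3.99, 4.1 and 3.63 TPM in iSLC and 0.56, 0.39 and 0.15 TPM in IM3, a rise of 14.4-fold (log2 fold change 3.84, standard error 0.30, adjusted p = 6.96e-12), and it too had its highest level in iSLC. Erbb4 had 821, 713 and 757 reads in iSLC against 130, 78 and 99 in IM3, and 1.85, 1.73 and 1.84 TPM against 0.35, 0.28 and 0.4 TPM. Its rise was 5.31-fold (log2 fold change 2.41, standard error 0.22, adjusted p = 2.70e-10). For these 3 genes the order of the groups was iSLC first, with a gap to the next group that was wider than the libraries of either.

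The 250 bases before the start sites of Erbb4 and Cldn11, which both rose from IM3 to iSLC, are shown to let the sequence be set beside the rise. From IM1 to IM3 the 2 genes moved in opposite directions (log2 fold changes of 2.30 and -1.41). They are the RefSeq promoters on GRCm38.p6, each given 5′ to 3′ on the strand of its gene, for Erbb4 at chr1:69108060-69108309 on the minus strand and for Cldn11 at chr3:31149670-31149919 on the plus strand. Letters in capitals mark a match to 1 of 4 motifs searched on both strands.
Erbb4: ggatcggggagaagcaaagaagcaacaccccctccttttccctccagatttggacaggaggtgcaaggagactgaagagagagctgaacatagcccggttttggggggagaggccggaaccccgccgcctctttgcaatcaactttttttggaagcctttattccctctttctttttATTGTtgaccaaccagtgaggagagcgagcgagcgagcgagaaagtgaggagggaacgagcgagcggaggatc
Cldn11: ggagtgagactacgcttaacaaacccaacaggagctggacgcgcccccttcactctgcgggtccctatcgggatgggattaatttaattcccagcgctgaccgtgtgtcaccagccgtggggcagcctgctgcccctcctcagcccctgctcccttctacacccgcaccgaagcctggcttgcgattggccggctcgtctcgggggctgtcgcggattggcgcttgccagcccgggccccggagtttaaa
The motifs were AAGGTCA for NR5A1, ACATTGT for DMRT1, ACAAT for SOX factors, which lies on the opposite strand within the DMRT1 motif, and AGATAA for GATA factors. Over 27025 RefSeq promoters these letters occur in 4.05%, 2.58%, 28.3% and 10.3%. Of the 10 members 6 were matched, Sox8, Dhh, Ptgds, Cst9, Erbb4 and Cldn11, in that table, and the single match among them was a SOX motif in Erbb4, 73 to 69 bases before the start. A match or its absence describes only these letters in this window.

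Dhh had 2.38, 1.53 and 1.68 TPM in iSLC and 0.66, 0.72 and 0.72 TPM in IM3 (log2 fold change 1.43, standard error 0.24, adjusted p = 5.71e-06), but its level in iSLC overlapped those of IM1, IM2 and IM5. Rhebl1, which shares exon bases with it, was at a mean of 8.26 TPM in IM3 and 5.14 TPM in iSLC. Sox8 was highest in iSLC, with 7.15, 6.23 and 7.42 TPM against 3.42, 4.2 and 4.09 TPM in IM3. It passed the p threshold at 1.73-fold (log2 fold change 0.79, standard error 0.10, adjusted p = 1.74e-07), under the fold threshold, as did Aard (log2 fold change 0.93, standard error 0.14, adjusted p = 2.18e-06). Aard in iSLC, at 3.86 to 4.54 TPM, stayed below the 3 ESC libraries.

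**Figure D3:**
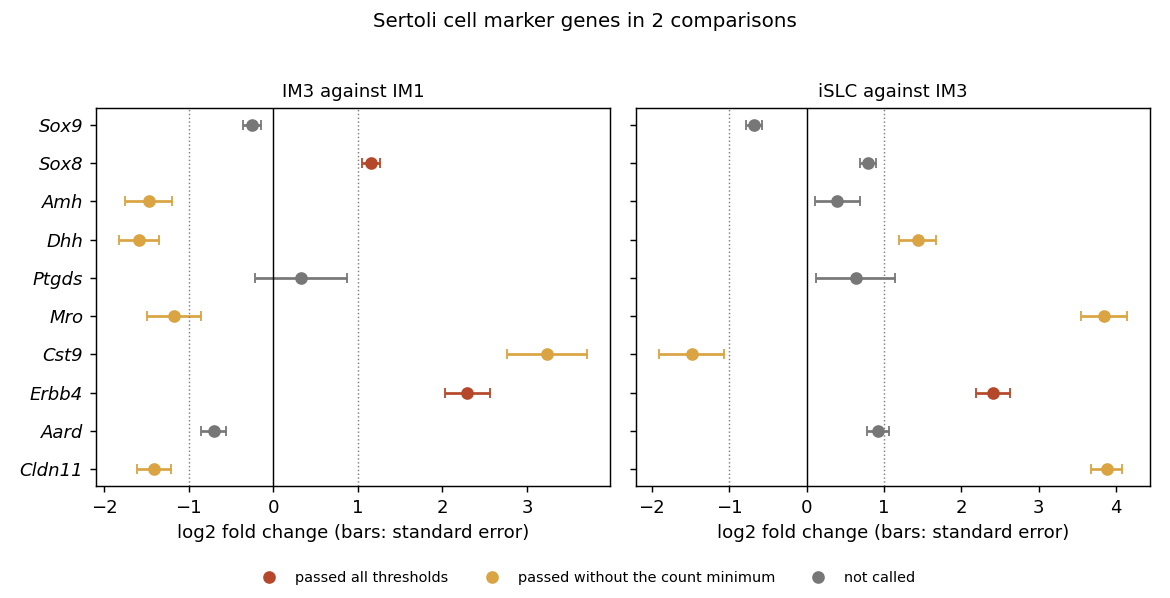
Log2 fold change (x axis) of the 10 genes (y axis) from IM1 to IM3 and from IM3 to iSLC, with bars for the standard error of the edgeR fit and dotted lines at a fold of 2. Amh, Dhh, Mro, Aard and Cldn11 lie on the left of 0 in the first panel and on the right in the second. Cst9 does the reverse.

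Sox9, in contrast, was lower in iSLC, at 26.5, 24.6 and 23.3 TPM, than in every library of IM3, although the cells had been sorted on a reporter of its enhancer. The log2 fold change was -0.68 (95% interval -0.89 to -0.47, adjusted p = 2.88e-06), a 1.60-fold difference under the fold threshold. Cst9 fell from 3.88, 3.67 and 5.69 TPM to 1.13, 1.69 and 1.67 TPM (log2 fold change -1.48, standard error 0.42, adjusted p = 0.00314), on 23 to 30 reads in iSLC, and this call was lost without IM3 replicate 3 (-1.28, adjusted p = 0.0193) or iSLC replicate 1 (-1.31, adjusted p = 0.0201). Amh was at 0.61, 0.47 and 0.6 TPM in iSLC and did not pass the test (log2 fold change 0.40, 95% interval -0.18 to 0.98, adjusted p = 0.227). Ptgds did not either (0.63, 95% interval -0.36 to 1.63, adjusted p = 0.267), on 11 to 12 reads per library. The upper limit for Amh is close to a 2-fold rise. It rests on 15 to 19 reads per library in IM3 and 24 to 37 in iSLC. A 2-fold rise is therefore not excluded for Amh, and it lies inside the interval for Ptgds.

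The regulators above these genes were read in the same libraries. Among genes upstream of Sox9, Nr5a1, Dmrt1, Zfpm2 and Nr0b1 were called higher in iSLC than in IM3, and Six4 and Fgfr2 lower. Nr5a1, the nuclear receptor that was introduced, was at 87.2 to 100.3 TPM in iSLC and at most 0.15 TPM in every other library. Dmrt1, the introduced factor that keeps Sertoli cells male, was at 192 to 228 TPM in iSLC, below 1.2 TPM in M and IM1 to IM5, and at a mean of 21.6 TPM in ESC. Reads from the viral and the chromosomal copies cannot be told apart. Sry, the Y-linked switch, had 0 reads in the 3 iSLC libraries and at most 3 in any library, which makes it not detectable at this depth. Wt1 was at a mean of 149 TPM in IM3 and 116 TPM in iSLC.

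**Figure D4:**
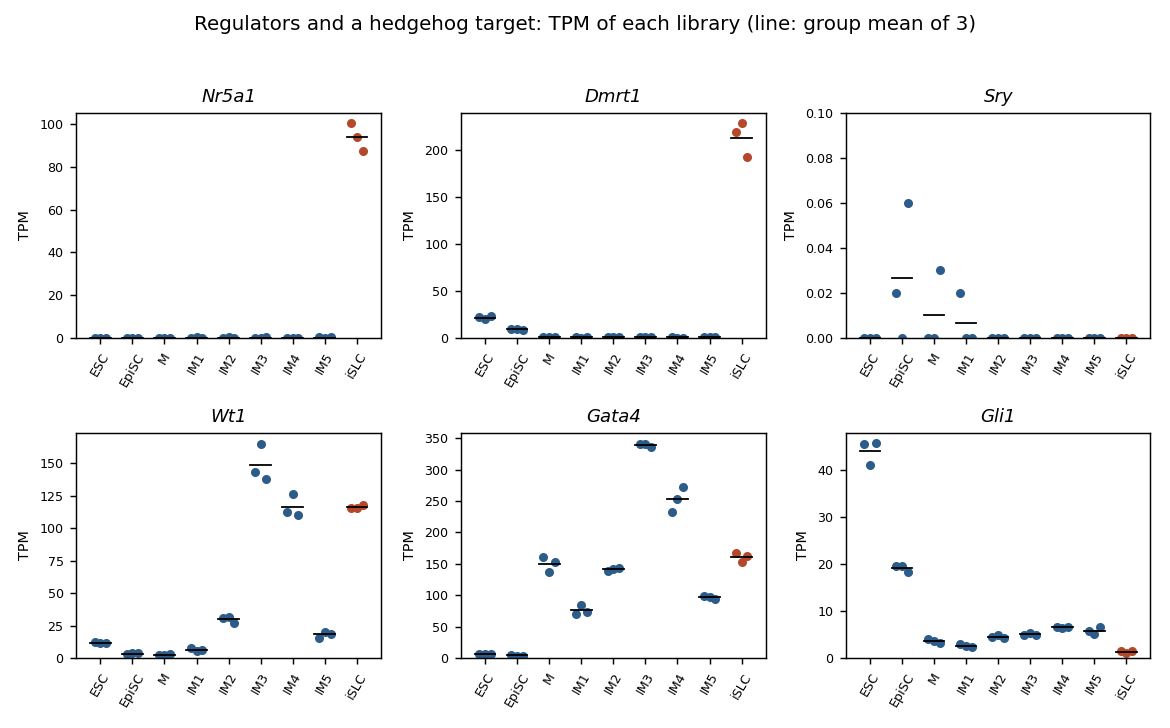
TPM (y axis, from 0) of 5 regulators and of the hedgehog target Gli1 in each library, by group on the x axis, with lines for means of 3 and iSLC in red. Nr5a1 is near 0 outside iSLC, Sry is at or under 0.06 TPM in all 27 libraries, and Gli1 is lowest in iSLC.

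Genes that receive or accompany these signals were read from fixed lists, beside 10.3% of all genes called higher and 8.92% lower in iSLC than in IM3, or 18.6% and 15.1% without the count minimum. Of 7 hedgehog receivers of Dhh, 0 were called higher in iSLC than in IM3 and 2 lower, the targets Gli1 (log2 fold change -1.86, standard error 0.11, adjusted p = 6.13e-14) and Hhip (-3.97, standard error 0.19, adjusted p = 2.13e-16). Smo (0.69), Gli2 (0.51), Gli3 (0.30) and Ptch1 (-0.75) passed the p threshold but not the fold threshold. The list summed to 137 to 146 TPM in IM3 and 190 to 195 TPM in iSLC. Gli1 was at a mean of 1.37 TPM in iSLC, 5.02 TPM in IM3 and 44.1 TPM in ESC, where Dhh was at 0.14 TPM. Of the 6 genes of anti-Müllerian hormone signalling, 0 were called higher and Smad9 fell, and the receptor Amhr2 was at a mean of 2.29 TPM in iSLC and 13.2 TPM in M. Among ErbB receptors and neuregulins 6 of 7 were tested, with Egfr (1.09) and the ligand Nrg1 (1.53) called higher and Erbb3 (-2.46) lower on the log2 scale. Of 9 tight junction partners of Cldn11, 0 were called higher and Cldn5, Cldn6 and Cldn7, claudins of endothelium and epithelium, fell (log2 fold changes of -6.91, -4.09 and -3.52). F11r, another of them, was at a mean of 57.4 TPM in IM3 and 108.1 TPM in iSLC, under the fold threshold (log2 fold change 0.93, adjusted p = 3.58e-11). Among 5 genes of prostaglandin D2 synthesis and reception Ptgs1 rose (2.57) and Ptgs2 fell (-3.27), and Ptgdr had no read in iSLC. Of 7 SOX partners and relatives Sox4 was called higher and Sox6, Sox11 and Sox13 lower.

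A wider list of 22 other Sertoli cell genes, of which 18 were tested, had 4 called higher in iSLC, Inha, Inhbb, Nedd9 and Serpine2, and 3 lower, Cyp26b1, Krt18 and Trf. Without the count minimum 9 were higher and 3 lower, with a median log2 fold change of 1.28. Beside these, 10.3% and 8.92% of all genes were called, or 18.6% and 15.1% without the minimum. Defb19, at 3 reads or fewer in every other group, passed the low-count filter through iSLC alone, so the counts and median lean towards iSLC. The summed level of the list was 1023 to 1153 TPM in IM3 and 900 to 964 TPM in iSLC. Inha and Inhbb, subunits of inhibin, rose by 2.17 and 4.32 on the log2 scale. Defb19, a defensin of fetal Sertoli cells, had 561 to 733 reads in iSLC and at most 1 in IM3. Cyp26b1, the enzyme that removes retinoic acid in the fetal testis, fell from a mean of 39.8 to 3.14 TPM. Retinoic acid was part of the IM3 medium, and its part in this fall was not tested. Fshr, the receptor for follicle-stimulating hormone, had at most 1 read in any iSLC library.

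Markers of other gonadal cells moved in the same comparison. Of 6 Leydig cell markers, 5 were tested, Cyp11a1 and Star, which start steroid synthesis, were called higher and 0 lower (4 and 0 without the count minimum), and the list summed to 10.4 to 13 TPM in IM3 and 70.6 to 91.1 TPM in iSLC, with Lhcgr at 3 reads or fewer in iSLC. Of 8 granulosa cell markers Fst and Wnt4 were called higher and Irx3 lower (4 and 1 without the count minimum), the list summed to 31.1 to 35.7 TPM in IM3 and 30.2 to 34.2 TPM in iSLC, and Foxl2, the defining ovarian factor, was at a mean of 0.21 TPM on 3 to 10 reads in IM3 and 0.687 TPM on 14 to 34 reads in iSLC. Cartilage markers summed to 32 to 38.1 TPM in IM3 and 21.4 to 25 TPM in iSLC, with Col2a1, Col9a1 and Sox6 called lower, Acan and Col11a2 higher, and Matn1 at 3 reads or fewer. Notochord and endoderm markers summed to 77.2 to 87 TPM in IM3 and 5.77 to 11.5 TPM in iSLC, where Noto and Shh were at 3 reads or fewer. Cardiac muscle markers summed to 234 to 466 TPM in IM3 and 149 TPM in the 3 iSLC libraries. Of these, Myh6, Myh7, Actc1 and Myl7 were called lower and 0 higher. Tnnt2 rose under the fold threshold (log2 fold change 0.93, adjusted p = 1.97e-08). The part of the cells of these lists in the changes of Sox9, Dhh and Sox8 was not tested.

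The genes whose mean over the 9 groups followed each member most closely were taken by Pearson correlation of log2 CPM, 3 per member, as a description over 9 points that share library preparation and depth. For Sox9 they were Ubash3b (r = 0.998), Dcaf10 (0.997) and Reep5 (0.996), and 2 of these 3 were also found with log2(TPM + 1) and 0 by rank correlation. For Cldn11 they were Flcn (0.982), Arsb (0.975) and Pik3r1 (0.974), and Pik3r1 (0.987) also stood beside Capzb (0.995) and Fam3a (0.990) for Mro. For Erbb4 they were Celf2 (0.985), Fndc5 (0.985) and Zbtb46 (0.977), and for Sox8 Lum (0.989), Ntrk3 (0.985) and Tapt1 (0.983). At most 1 of the 3 was shared with another scale for any member other than Sox9, so these neighbours depend on the scale.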

How the data were processed

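RNA of 27 mouse cell samples in 9 groups of 3 was sequenced as paired reads by the authors. Per the study's methods and the submitters' processing notes they trimmed reads with Cutadapt 1.9.1, aligned them to GRCm38 with STAR 2.5.2a and ran RSEM 1.3.0. The authors deposited expected counts, which are estimated read pairs per gene with no scaling between libraries. Their deposited TPM values take out effective length and library total, and the deposited FPKM values, scaled per length and library total, were used only as an alternative. The authors' strand setting is not given in the sources used here. The authors themselves compared groups with DESeq2.

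Names and positions came from GENCODE M21 (GRCm38), which matched 48435 of 48795 genes (99.98% of counts). Groups and replicate numbers came from the labels. Expected counts were rounded, filtered by filterByExpr (20839 genes kept) and fitted in edgeR 4.0.16 (R 4.3.3) by quasi-likelihood with TMM factors, 1 coefficient per group and all 27 libraries, with p-values adjusted over all genes by Benjamini-Hochberg. Thresholds were an adjusted p of 0.01, a fold of 2 and 100 normalized reads. Normalized reads are counts scaled by the library factors. The steps were tested on simulated data. The genes named are the 10 members, the fixed lists and the 3 most alike genes per member. The list of genes upstream of Sox9 is not reported here in full. The members and lists were chosen with earlier results of these data known.

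Alternatives were DESeq2 1.42.0 and its size factors, offsets for gene length or GC content, no filter, no count or fold minimum, another p threshold, only the compared groups, a replicate block and each library left out. Same-numbered libraries of different groups deviated together by a mean correlation of 0.019. Only in IM4 against IM3 was every pair over 0.1 (0.177 to 0.233). The values given for that comparison, like all others above, come from the fit without a replicate block. The block was run only as an alternative. No 2 replicates agreed within sampling noise (chi-square per degree of freedom of at least 3.64). Genes of the human and single-cell work of the study were not analysed here.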

Additional observations from a re-analysis of the deposited data

How the results depend on the processing

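The number of members called was within 1.5 times the value above in 112 of 129 alternatives other than leaving out a library. Without the count minimum it was 4 in EpiSC against ESC, 5 in M against EpiSC, 9 in IM1 against M, 8 in IM3 against M, 7 in IM3 against IM1, 4 in IM2 against IM3, 2 in IM5 against IM4 and 5 in iSLC against IM3. Without the fold minimum it was 2 in EpiSC against ESC, 2 in IM2 against IM3 and 4 in iSLC against IM3. In EpiSC against ESC it was also 2 with no filter, only the groups compared, the replicate block, the GC offset and the GC offset with the block, where Sox9 (log2 fold change 0.99) crosses the fold threshold. In IM4 against IM3 it was 0 with the length offset. With 1 library left out the counts ran from 1 to 2 in EpiSC against ESC (2 without ESC replicate 3 or EpiSC replicate 2), 2 to 3 in IM1 against M, 0 to 1 in IM4 against IM3 and 1 to 2 in iSLC against IM3 (2 without IM3 replicate 1). The replicate block changed no other count. No called value changed direction under these alternatives. Of the called log2 fold changes 18 of 360 under other settings and 30 of 270 with 1 library left out no longer passed. With only the groups compared, the calls without the count minimum that no longer passed were Cst9 and Erbb4 in EpiSC against ESC, Dhh and Cldn11 in M against EpiSC, Cldn11 in IM3 against M and Mro in IM3 against IM1 (adjusted p of 0.0141 to 0.0342). Genes most like each member changed with the scale in most cases. Depth limited Amh, Ptgds, Mro and Cst9 most, with under 40 normalized reads on average.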
